A study of Mus musculus with 7 samples.

Results

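The mouse hairpins mmu-mir-107, mmu-mir-103-2 and mmu-mir-103-1 give rise to miR-107 and miR-103, whose mature 3′ strands differ by a single base. They were chosen by name and were 3 of the 1196 hairpins searched. Each tag, a distinct sequence with the number of times it was read, was placed at its best ungapped position over all hairpins with at most 2 mismatches. Tags whose best position lay on these 3 hairpins were summed by arm, start, end and library. They numbered 1066026 of 41180989 tags (2.59%) and comprised 1060 of 79503 distinct sequences.

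The tags came from small RNA of HL-1 cells, an immortalised line derived from mouse atrial cardiomyocytes, and no treatment is named in the labels. Cells were seeded sparsely and taken after 1, 2, 3 or 4 days in culture, over which the cultures went from not beating to beating. The design has 7 libraries in 2 time courses. Time course 2 covers all 4 days with 1 library each. Time course 1 covers days 1, 3 and 4 with 1 library each and so lacks day 2, as the independent repeat that the study describes does. All libraries are of 1 cell line, so that the spread between libraries of a day is that between repeats of the culture. The libraries held 4945112 to 6899476 deposited tags. Values are given as CPM, the tags of a feature scaled to 1000000 deposited tags of its library. They are shares of the miRNA tags, so that a rise of other miRNAs lowers them.

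Of the muscle miRNAs checked, miR-208a-5p and the 3′ arms of mir-1a and mir-133a were abundant in every library. miR-499-5p was below the endothelial marker miR-126a-3p in each. The range of miR-208a-3p overlapped that of this marker, with a median of 178 CPM beside 357 CPM. The 3′ arm of mir-1a, a muscle miRNA, had 48642 to 70638 CPM, that of mir-133a had 13637 to 24544 CPM, and miR-208a-5p, from an intron of a cardiac myosin gene, had 1204 to 4134 CPM. miR-208a-3p, its partner strand, had 108 to 398 CPM, and miR-499-5p, also from a myosin intron, had 2.43 to 9.85 CPM. The endothelial miR-126a-3p had 225 to 578 CPM, the erythroid miR-451a had 15.4 to 35.3 CPM, and miR-142a-3p and miR-223-3p of blood cells, miR-199a and miR-214 of fibroblasts and the 5′ arm of mir-122 of liver stayed below 5 CPM, while miR-9-5p of neurons had 9.65 to 22.5 CPM.

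miR-103 and miR-107 are vertebrate miRNAs encoded within introns of pantothenate kinase (Pank) genes, whose enzymes catalyse the first step of coenzyme A synthesis. The hairpin is cut in the nucleus by Drosha and in the cytoplasm by Dicer, and one strand of the duplex is kept in an Argonaute protein. That strand finds its targets mainly through its seed, bases 2 to 8. Both miRNAs have been studied as regulators of Dicer itself in human tumour cells and of insulin sensitivity in mice.

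In the mouse assembly GRCm38, Mir107 lies on the minus strand at chr19:34820687-34820773 within Pank1, Mir103-2 on the plus strand at chr2:131288052-131288137 within Pank2, and Mir103-1 on the plus strand at chr11:35782396-35782481 within Pank3. Each is in the sense orientation of its host, in intron 5 of 6 of its principal (APPRIS) transcript in GENCODE. Mir107 begins 326 bases after the upstream exon in an intron of 7282 bases, Mir103-2 begins 454 bases after it in an intron of 5801 bases, and Mir103-1 begins 688 bases after it in an intron of 1740 bases. These positions are those of the annotation and not of the deposited files, which carry none.

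The mature strands show what the 3 hairpins share and where they part, and are given as RefSeq has them (GRCm38.p6), with the seed in capitals.
miR-107-3p: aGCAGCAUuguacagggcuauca
miR-103-3p: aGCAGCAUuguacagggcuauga
miR-107-5p: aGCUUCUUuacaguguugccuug
miR-103-2-5p: aGCUUCUUuacagugcugccuug
miR-103-1-5p: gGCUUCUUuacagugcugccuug
Positions are counted from 1 at the annotated start of the strand. The 3′ strands differ by G22C from miR-103 to miR-107, outside the seed, and no other of the 1679 annotated mouse strands searched has their seed. The 5′ strands differ by C16U from mir-103-2 to mir-107 and by G1A from mir-103-1 to mir-103-2.

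The stretch of 30 bases from the start of the 3′ strand shows why most tags name a miRNA but not a hairpin. The bases at which the 3 hairpins are not all alike are in capitals.
Mir107 3p: agcagcauuguacagggcuauCaaAgCaCA
Mir103-2 3p: agcagcauuguacagggcuauGaaAgAaCC
Mir103-1 3p: agcagcauuguacagggcuauGaaGgCaUU
A tag from the annotated start that ends before base 22 fits miR-107 and miR-103 equally well. A miR-103 tag that ends before base 25 fits mir-103-1 and mir-103-2 equally well. Tags that fit both miRNAs were kept as a class of their own, and were divided only for the 5′ arm share and in alternative fits. Tags that fit both mir-103 hairpins were counted as miR-103.

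The most frequent deposited tags of each length are shown in DNA letters, as the files give them, with base 22 in capitals.
shared, 21 nt: agcagcattgtacagggctat
miR-107, 22 nt: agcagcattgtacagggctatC
miR-103, 22 nt: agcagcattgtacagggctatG
miR-107, 23 nt: agcagcattgtacagggctatCa
miR-103, 23 nt: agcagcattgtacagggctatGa
miR-107, 24 nt: agcagcattgtacagggctatCaa
miR-103, 24 nt: agcagcattgtacagggctatGaa
The 23-nt tags, which span the annotated strands, were read 226993 times for miR-107 and 220177 times for miR-103. At 22 nt the counts were 108549 for miR-107 and 47578 for miR-103, and at 24 nt they were 78443 for miR-107 and 43128 for miR-103. The shared 21-nt tag was read 159556 times. The 2 miRNAs were thus nearly level in the annotated form, and miR-107 was ahead in the forms 1 base shorter and 1 base longer.

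The 3′ arm carried nearly all tags of the 3 hairpins and was among the most abundant miRNA features of these cells. Tags that fit only miR-107 numbered 459431, tags that fit only miR-103 numbered 360064, and tags that fit both numbered 234498. Their sum ranked 9 of 2201 features over all libraries, between 6 and 12 in single libraries. Separately, miR-107-3p ranked 23, miR-103-3p ranked 27 and the shared class ranked 38 of 2203 features. Tags with 1 mismatch made up 8.68% ± 2.35 (SD, n = 7) of the sum, and no tag of the 3′ arm was placed with 2.

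The 3′ arm sum took 2.57% ± 0.437 (SD, n = 7) of the tags of a library. It had 22275, 22686, 20553 and 23904 CPM over days 1 to 4 of time course 2, against 29841, 28557 and 31932 CPM on days 1, 3 and 4 of time course 1. Counting error is small beside this spread, since the widest 95% Wilson interval of a library's share was ± 0.0155 percentage points. The plot of 3′ arm tags by library shows the sum and its 3 classes, and the libraries of the 2 time courses do not overlap. In bulk RNA, fewer cells that make a miRNA and less of it per cell cannot be told apart.

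**Figure D1:**
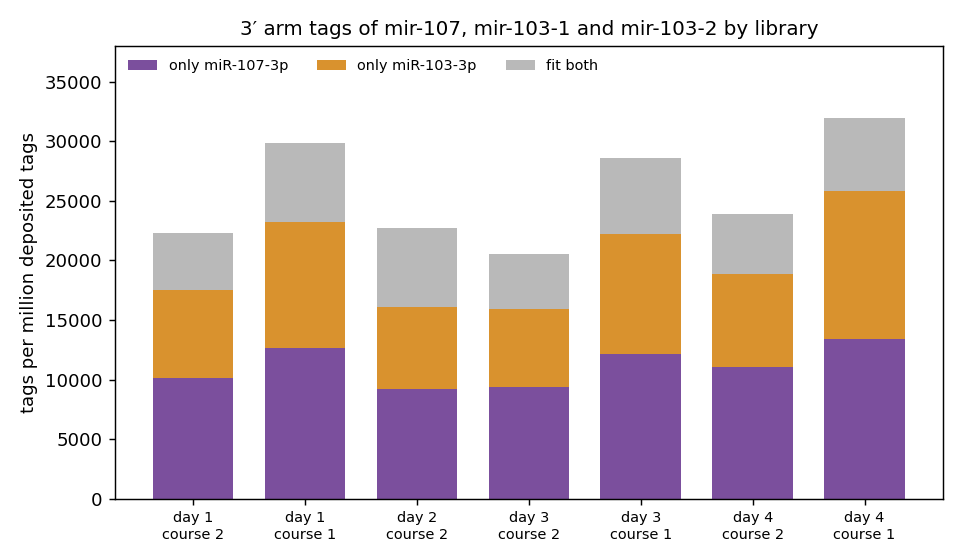
Tags of the 3′ arm scaled to 1000000 deposited tags of a library (CPM, vertical axis) in each of the 7 libraries, stacked as tags that fit only miR-107-3p, only miR-103-3p or both. All 4 libraries of time course 2 lie between 20553 and 23904 CPM, below the 28557 to 31932 CPM of the 3 libraries of time course 1.

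Tags that fit only miR-107 had 10106, 9205, 9408 and 11097 CPM at days 1, 2, 3 and 4 of time course 2, against 12667, 12150 and 13444 CPM at days 1, 3 and 4 of time course 1. Tags that fit only miR-103 had 7418, 6889, 6557 and 7747 CPM at the same days of time course 2, against 10519, 10088 and 12351 CPM in time course 1. Both classes were lower in every library of time course 2 than in any of time course 1. The shared class had 4751, 6591, 4587 and 5060 CPM in time course 2, against 6654, 6320 and 6137 CPM in time course 1, and here the time courses overlapped because of the day 2 library. For both classes the day 4 and day 1 libraries of a time course were closer to each other than to any library of the other time course.

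Whether the family changed as the cultures began to beat was asked by comparing day 4 with day 1. None of the 7 classes of the 3 hairpins that passed the filter on low counts was called by edgeR's quasi-likelihood test (Benjamini-Hochberg adjusted p below 0.05), and of all 943 features tested 0 were called, 0.0%. An unadjusted p below 0.05 was reached by 90 of the 943 features and by 0 of these 7. DESeq2 called 9 features, 0.954%, edgeR with the time course as a block called 11, 1.17%, and edgeR with no filter called 10 of 2203, 0.454%. None of the classes of the hairpins was among the features called. DESeq2 gave no adjusted p for 421 of the 943 features, and its share is over all 943. The other 2 classes of the hairpins held 11 and 3 tags and passed no filter. In CPM, 1 of the 7 classes, miR-103-1-5p, was higher at day 4 without overlap, where 14.3% of the 943 features were, and 1, tags that fit both miR-103-2-5p and miR-107-5p, was lower, where 26.8% of the features were.

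The 3′ arm sum had 23904 and 31932 CPM at day 4, against 22275 and 29841 CPM at day 1, with time course 2 given first. It was thus higher at day 4 within each time course, while the days overlapped. Its fold change was 0.25 ± 0.29 (SE) on the log2 scale, with edgeR's adjusted p = 0.846. With the time course as a block the fold change was 0.24 ± 0.20 (SE), with adjusted p = 0.588. With the 3 classes summed, 0 of 941 features were called, 0.0%, 90 had an unadjusted p below 0.05, DESeq2 called 14, 1.49%, and edgeR called 10 with the block, 1.06%, and 10 with no filter, 0.454%. The sum was not among the features called. DESeq2 gave no adjusted p for 438 of the 941 features, and its share is over all 941. The fold change of the sum was smaller than its SE without the block and larger than its SE with it. With library totals in place of TMM factors it was 0.0972, and the median of all features was -0.159, against -0.00335 with TMM factors.

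miR-107-3p had 11097 and 13444 CPM at day 4, against 10106 and 12667 CPM at day 1, and its log2 fold change was 0.26 ± 0.28 (SE; edgeR's adjusted p = 0.822). miR-103-3p had 7747 and 12351 CPM at day 4, against 7418 and 10519 CPM at day 1, and its log2 fold change was 0.32 ± 0.35 (SE; edgeR's adjusted p = 0.833). Without the day 4 library of time course 1 the value of miR-103-3p was -0.0313, and without that of time course 2 it was 0.61. The shared class had 0.13 ± 0.30 (SE; adjusted p = 0.937), and it was -0.0289 with library totals. The 5′ strands had 0.21 ± 0.37 for miR-107-5p, 0.37 ± 0.39 for miR-103-2-5p and 0.38 ± 0.39 for miR-103-1-5p (SE; edgeR's adjusted p = 0.891, 0.822 and 0.818). Each of these values lay within 1 SE of 0. Tags that fit both miR-103-2-5p and miR-107-5p, 183 in all, had -0.88 ± 0.59 (SE; adjusted p = 0.698), in the other direction and more than 1 SE from 0.

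**Figure D2:**
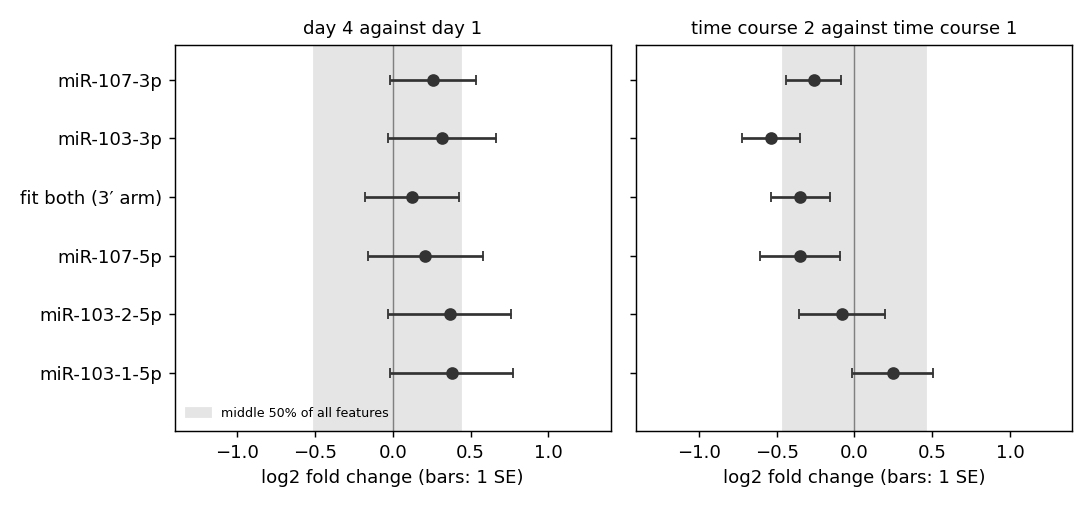
Log2 fold changes from edgeR (horizontal axis, bars 1 SE) of 6 classes of the 3 hairpins, at day 4 against day 1 (left) and in time course 2 against time course 1 (right), with the middle 50% of all 943 features in grey. At day 4 all 6 lie between 0.13 and 0.38, while the class of tags that fit both miR-103-2-5p and miR-107-5p, at -0.88, is not drawn, and in time course 2 the lowest is miR-103-3p at -0.54.

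Time course 2 was compared with time course 1 in the same way, with the day in the fit. edgeR called 50 of 943 features, 5.3%, of which 35 (3.71%) were higher and 15 (1.59%) lower in time course 2, and 0 of the 7 classes of the hairpins. The count of 50 changed with the libraries kept. It was 0 without the day 1 library of time course 2 and 7 without that of time course 1. It was 28 and 29 without the day 3 library of time course 1 or of time course 2, and 82 without the day 4 library of time course 1. With the day in the fit, the partner left alone on its day carries nothing about the time courses. Each such omission thus removes a pair of libraries from the comparison. miR-103-3p had the largest difference of the 7 classes, at -0.54 ± 0.19 (SE) on the log2 scale (edgeR's unadjusted p = 0.0137, adjusted p = 0.115). An unadjusted p below 0.05 was reached by 207 of the 943 features. The 3′ arm sum had -0.38 ± 0.16 (SE; adjusted p = 0.217) and miR-107-3p had -0.26 ± 0.18 (SE; adjusted p = 0.412).

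In CPM 2 of the 7 classes, miR-107-3p and miR-103-3p, were lower in time course 2 without overlap, as were 72 of 943 features, 7.64%, while 11% were higher without overlap and 0 of the classes were. The 3′ arm sum was lower without overlap too, where 7.55% of 941 features were. The mean of miR-103-3p in time course 2 was 0.651 times that in time course 1, at 7153 and 10986 CPM, and that of miR-107-3p was 0.780 times, at 9954 and 12754 CPM. An exact two-sided permutation test of 4 against 3 libraries gave p = 0.0571 for each (adjusted p = 0.124 over 13 such comparisons), the smallest p this design allows. The 5′ strands overlapped, with means of 189 and 222 CPM for miR-107-5p, 45.0 and 46.1 CPM for miR-103-2-5p and 32.3 and 29.2 CPM for miR-103-1-5p in time course 2 and time course 1. Time course cannot be told apart from anything else that differed between the repeats.

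Within each library tags that fit only miR-107 outnumbered those that fit only miR-103. The ratio was 1.36, 1.34, 1.43 and 1.43 at days 1, 2, 3 and 4 of time course 2, against 1.20, 1.20 and 1.09 at days 1, 3 and 4 of time course 1. On the log2 scale it averaged 0.37 ± 0.15 (SD) and was above 0 in 7 of 7 libraries (exact two-sided sign-flip permutation test, p = 0.0156, the smallest that 7 libraries allow, and they come from 2 time courses). It averaged 0.48 in time course 2 and 0.22 in time course 1, without overlap (exact permutation test, p = 0.0571, adjusted p = 0.124).

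This lead depended on tag length. Without the tags that end on base 22, the log2 ratio averaged 0.17 ± 0.21 (SD, n = 7) and the exact sign-flip p was 0.0781, with 0.32 in time course 2 and -0.0313 in time course 1. In time course 1 these ratios ranged over -0.18 to 0.0758, on both sides of 0, and in time course 2 over 0.25 to 0.41. The 23-nt tags alone, compared after the values were seen, averaged 0.0348 ± 0.24 (SD, n = 7), with 0.0882, 0.13, 0.26 and 0.34 at days 1, 2, 3 and 4 of time course 2, against -0.18, -0.0817 and -0.32 at days 1, 3 and 4 of time course 1. The sign of the 23-nt ratio thus divided the time courses.

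Among 22-nt tags the log2 ratio averaged 1.17 ± 0.17, among 24-nt tags 0.86 ± 0.11, and among 25-nt tags 0.11 ± 0.11 (SD, n = 7 each). The lead at 22 and 24 nt was present in every library, with lowest values of 0.99 and 0.70. Only the 23-nt ratio, of these 4 lengths, did not overlap between time courses.

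**Figure D3:**
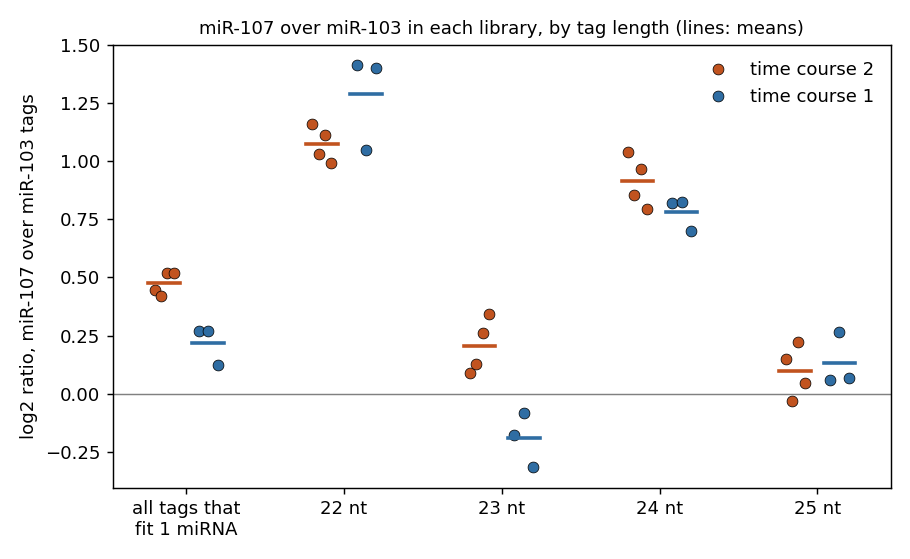
Log2 ratio of miR-107 to miR-103 tags (vertical axis) in each library, for all tags that fit 1 miRNA and for tags of 22, 23, 24 and 25 nt from the annotated start, with time course 2 left of time course 1 and lines at the means. At 23 nt the 4 libraries of time course 2 lie above 0 and the 3 of time course 1 below it, while at 22 and 24 nt all 7 lie above 0.69.

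How reliably base 22 was read can be gauged from bases that fit neither miRNA. Among 3′ arm tags of 24 nt or longer, A or T stood at base 22 in 0.188% ± 0.0768 (SD, n = 7). Among tags of 22 and 23 nt it stood there in 0 tags. The files therefore hold no mismatched last or second last base in these tags, and an exchange of G and C cannot be told apart from the other miRNA. In the 23-nt tags the commonest mismatches lay at bases 18 and 19, with C18A in 2.51% ± 1.01 of miR-107 and 3.30% ± 1.87 of miR-103 tags, U19C in 2.34% ± 1.04 of miR-107 and 2.14% ± 0.513 of miR-103 tags, and U19A in 1.59% ± 0.930 of miR-107 and 2.18% ± 1.57 of miR-103 tags (SD, n = 7).

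The 3′ ends of the 2 miRNAs were distributed differently, a comparison chosen after the values were seen. Among tags from the annotated start that fit only 1 miRNA, the annotated 23-nt end held 54.6% ± 1.5 for miR-107 and 69.5% ± 4.52 for miR-103 (SD, n = 7). The 22-nt end held 25.6% ± 1.99 for miR-107 and 14.9% ± 2.21 for miR-103, and the 24-nt end held 17.7% ± 1.69 for miR-107 and 12.8% ± 2.00 for miR-103. The log2 odds of a 22-nt end were higher for miR-107 by 0.98 ± 0.36, and those of a 24-nt end by 0.56 ± 0.13 (SD), each in 7 of 7 libraries. The exact sign-flip p was 0.0156 for each, the smallest that 7 libraries allow. The 9 main tests of this kind all gave this p, so that adjustment over these 9 could not change it. The alternative settings of the ratio test that leave out the 22-nt tags (exact sign-flip p = 0.0781) were not among the 9.

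**Figure D4:**
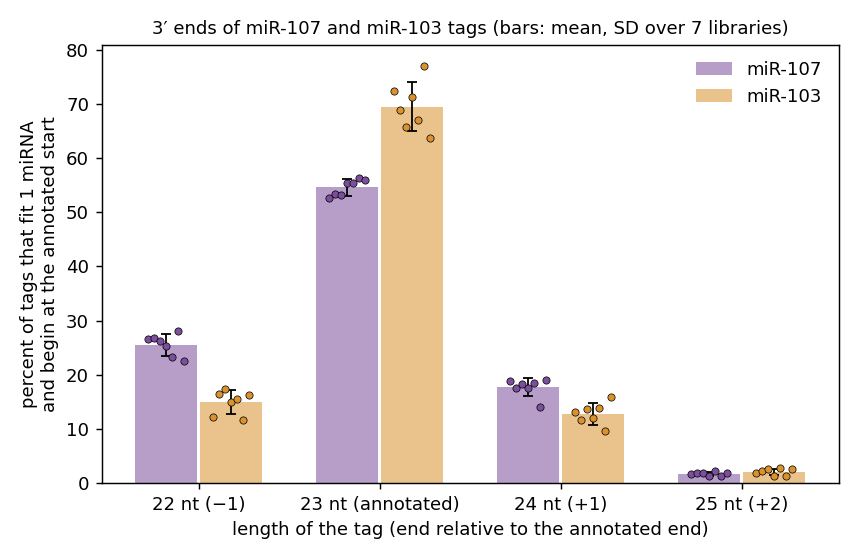
Percent of tags (vertical axis) that end 1 base short of, on, or 1 or 2 bases past the annotated 3′ end, among tags from the annotated start that fit only miR-107 or only miR-103. Bars are means, error bars the SD over 7 libraries and points the libraries; the 23-nt end holds 54.6% of miR-107 and 69.5% of miR-103 tags.

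Taking all 3′ arm tags together, with the shared ones, 47.3% ± 3.54 of those from the annotated start ended on it at 23 nt, 16.1% ± 0.716 at 22 nt and 17.1% ± 2.26 at 21 nt (SD, n = 7). A further 2.92% ± 0.717 ended at 19 nt, above the 1.23% ± 0.164 at 20 nt and the 1.37% ± 0.489 at 18 nt. The share of tags off the annotated 3′ end did not pass limma's test at day 4 against day 1, with a difference in log2 odds of -0.15 ± 0.22 (SE; adjusted p = 0.876). Of 242 miRNAs so tested 0 were called, 0.0%, and 22 had an unadjusted p below 0.05.

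Shared tags were 22.5% ± 3.08 (SD, n = 7) of the 3′ arm sum. The other 6 libraries had 19.2% to 22.3%, and the day 2 library of time course 2 had 29.1% (95% Wilson interval 28.8% to 29.3%). In the same library 21.8% of all other placed tags were of 21 nt or less, the highest of the 7 libraries, which ranged down to 16.3%. The part of tag length over all miRNAs in the day 2 value was not tested.

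Most tags of the 3′ arm began on the annotated base, and starts elsewhere made up 0.964% ± 0.105 (SD, n = 7). The most frequent tags of the starts at -1 and +2 are shown with bases 2 to 8 in capitals, since these starts change the seed.
miR-107, start -1: aAGCAGCAttgtacagggctatca
miR-103, start -1: aAGCAGCAttgtacagggctatga
miR-107, start +2: cAGCATTGtacagggctatca
miR-103, start +2: cAGCATTGtacagggctatga
The start at -1 gives the seed AGCAGCA, which 10 of 1679 annotated mouse strands have, among them miR-15a-5p, miR-15b-5p, miR-16-5p, miR-195a-5p, miR-322-5p and miR-497a-5p. The start at +2 gives AGCAUUG, which 0 of the 1679 have.

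The seed of the miR-15/16 group was thus carried by few tags of these hairpins. Starts at -1 made up 0.0900% ± 0.0267 (SD, n = 7) of the 3′ arm sum, or 924 tags over all libraries. Of these, 196 fit both miRNAs and may be counted more than once. Starts at +2 made up 0.450% ± 0.0883 of miR-107 tags and 1.41% ± 0.213 of miR-103 tags. The log2 odds of a +2 start were lower for miR-107 by 1.67 on average (-1.67 ± 0.16, SD), in 7 of 7 libraries (exact sign-flip p = 0.0156, chosen after the values were seen). Among tags that end on the annotated base the difference was -2.27 ± 0.32 (SD, n = 7). The share of 3′ arm tags off the annotated start differed by 0.13 ± 0.25 (SE) in log2 odds at day 4 against day 1 (limma's adjusted p = 0.982), and 0 of 236 miRNAs were called, 0.0%, while 20 had an unadjusted p below 0.05.

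The 5′ strands, the partners that are mostly discarded, were rare. They held 11600 tags over all libraries, or 1.11% ± 0.232 (SD, n = 7) of the tags on the 3 hairpins. miR-107-5p had 138 to 247 CPM with a median of 219 CPM, miR-103-2-5p had 32.9 to 54.4 CPM and miR-103-1-5p had 26.2 to 42.1 CPM. Of the 5′ tags that fit 1 hairpin, 72.4% ± 3.41 (SD, n = 7) came from mir-107.

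The 5′ arm took a larger share at mir-107 than at mir-103. With shared tags divided in proportion to those that fit 1 miRNA, it was 1.43% ± 0.288 at mir-107 and 0.714% ± 0.199 at the mir-103 hairpins (SD, n = 7). The share at mir-107 was higher in 7 of 7 libraries, by 1.49 to 2.82 times. The difference in log2 odds was 1.03 ± 0.36 (SD; exact sign-flip p = 0.0156).

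The 5′ arms also differed in where their tags began. The tags that begin on the annotated base are shown for each hairpin, and those 1 base before it for mir-107 and mir-103-2, with the first base in capitals. The base before the annotated start is C in all 3.
mir-107 5p, annotated start, 24 nt: Agcttctttacagtgttgccttgt
mir-107 5p, start -1, 24 nt: Cagcttctttacagtgttgccttg
mir-103-2 5p, annotated start, 24 nt: Agcttctttacagtgctgccttgt
mir-103-2 5p, start -1, 24 nt: Cagcttctttacagtgctgccttg
mir-103-1 5p, annotated start, 24 nt: Ggcttctttacagtgctgccttgt
These tags were read 1879 and 853 times for mir-107, 523 and 2 times for mir-103-2, and 609 times for mir-103-1. The 24-nt tag of mir-103-1 at -1, not shown, was read 1 time. The most frequent tag of mir-103-2 at -1 was shorter, cagcttctttacagtgct with 74 reads. The start at -1 held 2042 of 8270 tags of miR-107-5p (24.7%, Wilson interval 23.8% to 25.6%), 231 of 1863 of miR-103-2-5p (12.4%, 11% to 14%) and 5 of 1270 of miR-103-1-5p (0.394%, 0.168% to 0.918%).

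In single libraries it ranged over 20.4% to 29% for miR-107-5p, 7.80% to 16.3% for miR-103-2-5p and 0 to 1.16% for miR-103-1-5p, and the 3 ranges did not overlap. In 3 libraries miR-103-1-5p had 0 such tags, of which the shallowest, 0 of 146 tags, allows a share of up to 2.05%. The log2 odds were higher at mir-107 than at mir-103-2 by 1.22 ± 0.37, higher at mir-107 than at mir-103-1 by 5.85 ± 0.93, and higher at mir-103-2 than at mir-103-1 by 4.63 ± 1.18 (SD, 0.5 added to each count). Each held in 7 of 7 libraries (exact sign-flip p = 0.0156, chosen after the values were seen). Among tags of 21 nt or longer the shares were 23.8% ± 2.48 at mir-107, 5.24% ± 1.56 at mir-103-2 and 0.132% ± 0.226 at mir-103-1 (SD, n = 7), and they held 74 of the 231 early tags of mir-103-2.

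**Figure D5:**
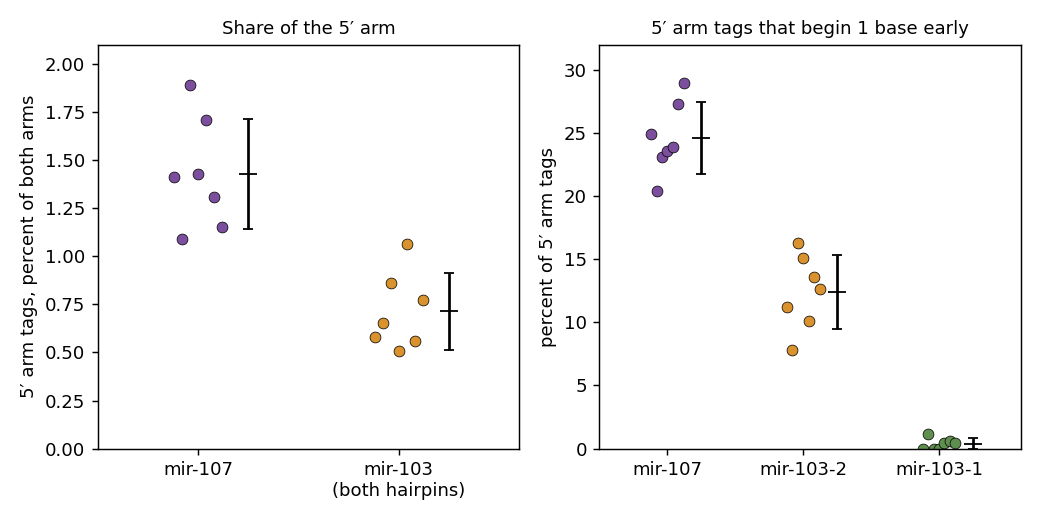
Left, tags of the 5′ arm as a percent of both arms of mir-107 and of the mir-103 hairpins together; right, percent of 5′ arm tags that begin 1 base before the annotated start for mir-107, mir-103-2 and mir-103-1. Points are the 7 libraries and bars the mean with SD; the 5′ arm share averages 1.43% at mir-107 and 0.714% at mir-103, and early starts range over 20.4% to 29% at mir-107, 7.80% to 16.3% at mir-103-2 and 0 to 1.16% at mir-103-1.

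Ends of the 5′ strands differed too. The tag 1 base past the annotated end held 27.8% ± 3.97 of miR-107-5p, 31.5% ± 6.0 of miR-103-2-5p and 48.6% ± 8.18 of miR-103-1-5p, and the annotated end held 38.6% ± 3.16 of miR-107-5p, 11.7% ± 3.19 of miR-103-2-5p and 26.9% ± 5.97 of miR-103-1-5p (SD, n = 7). Tags of 21 nt or less were 18.4% ± 4.04 of miR-107-5p, 39.1% ± 8.44 of miR-103-2-5p and 9.81% ± 5.84 of miR-103-1-5p. The share off the annotated end at day 4 against day 1 differed by -0.84 ± 0.33 for miR-103-1-5p and -0.63 ± 0.28 for miR-103-2-5p in log2 odds (SE; limma's adjusted p = 0.496 for both). Neither passed the test.

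Which of the 2 mir-103 hairpins gave the mature miRNA can be read only from tags that reach base 25, here with base 25 in capitals.
mir-103-2, 25 nt: agcagcattgtacagggctatgaaA
mir-103-1, 25 nt: agcagcattgtacagggctatgaaG
Of the 25-nt tags 2716 had the A of mir-103-2 and 4138 the G of mir-103-1, and 0 had C or T. All tags that fit 1 of these hairpins were 2.72% ± 0.852 (SD, n = 7) of miR-103 tags, so that they speak for the longest tags only. As at base 22, no base that fits neither hairpin stood at the end of these tags. Among 25-nt tags with the C of miR-107 at base 22, whose hairpin has A at base 25, 75 had G there and 7507 had A. Their G share was 0.964% ± 0.493, beside 59.6% ± 4.40 among those with the G of miR-103 (SD, n = 7). A tag with C at base 22 and G at base 25 has 1 mismatch to either hairpin, so misreading of either base could give it.

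The arms differed in this share. mir-103-1 held 60.8% ± 3.87 of the 3′ tags that fit 1 mir-103 hairpin, and 40.7% ± 5.19 of the 5′ tags (SD, n = 7). The 3′ share ranged over 55.6% to 66.0% and the 5′ share over 34% to 46.8%, without overlap. The log2 odds of mir-103-1 were higher among 3′ tags by 1.18 ± 0.39 (SD) in 7 of 7 libraries (exact sign-flip p = 0.0156, chosen after the values were seen). Among 3′ tags of 26 nt or longer, 2218 in all, the share was 63.8% ± 4.59 (SD, n = 7).

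miR-103 and miR-107 belong to a wider group of miRNAs that have the bases AGCAGC at or 1 base after their start. The strands are given as RefSeq has them with those bases in capitals, for the further members that lead in these cells and for miR-503. The seed of miR-503 departs at its last base from the AGCAGCA of miR-15b, miR-322 and miR-195a, which miR-103 and miR-107 do not have at their annotated start.
miR-15b-5p: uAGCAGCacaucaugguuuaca
miR-322-5p: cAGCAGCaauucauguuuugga
miR-195a-5p: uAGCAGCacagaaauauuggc
miR-503-5p: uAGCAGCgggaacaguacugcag
The 3′ arm sum of mir-103 and mir-107 made up 46.2% ± 5.63 (SD, n = 7) of the tags of miR-103, miR-107 and 7 further miRNAs of this group, 9 in all. Other annotated strands with these bases, miR-195b, miR-6342, miR-6353 and miR-6419 among them, were not counted. The next in level was miR-15b-5p with 13627 to 19413 CPM, followed by miR-322-5p with 3269 to 4959 CPM, miR-195a-5p with 2772 to 4298 CPM, miR-497a-5p with 1115 to 2335 CPM, miR-16-5p with 1162 to 2616 CPM, the 5′ arm of mir-15a with 886 to 1162 CPM, and miR-503-5p with 457 to 1360.5 CPM. miR-15b-5p was below the 3′ arm sum in all 7 libraries. Its range lay above those of tags that fit only miR-107 (9205 to 13444 CPM) and only miR-103 (6557 to 12351 CPM), which leave out the shared tags.

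Of the 7 other members 0 were called by edgeR at day 4 against day 1, where 0.0% of all features were, and 0 in time course 2 against time course 1, where 5.3% of all features were. Their median log2 fold change at day 4 was 0.0190, beside -0.00489 over all 943 features, and in time course 2 it was 0.0733, beside 0.0123 over all features. miR-15b-5p, encoded beside one of the copies of miR-16, had 0.24 ± 0.28 at day 4 and 0.32 ± 0.17 in time course 2 (SE; adjusted p = 0.847 and 0.309).

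The features whose levels over the 7 libraries were most like those of the 3′ arm sum were compared by Pearson's r of log2 CPM, as a description. Of 534 features with at least 150 tags, the closest were miR-210-3p at 0.994, tags of the 3′ arm of mir-23b, for which the table used holds no 3′ strand, at 0.949, miR-30c-2-3p at 0.936, tags of the 5′ arm of mir-433 off its annotated start at 0.930, and miR-674-5p at 0.925. All points share the library totals and the division into time courses. miR-210-3p, known as a miRNA induced by low oxygen, had 4201, 3381, 4552 and 6788 CPM at days 1, 2, 3 and 4 of time course 2, against 10095, 15427 and 19622 CPM at days 1, 3 and 4 of time course 1. It was called lower in time course 2, at -1.46 ± 0.20 on the log2 scale (SE; edgeR's adjusted p = 0.00162), whereas the 3′ arm sum, at -0.38, was not called.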

How the data were processed

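Small RNA was size-selected, prepared with the SOLiD Small RNA Expression Kit, sequenced and mapped by the authors to miRBase hairpins and the mouse genome (mm9 per the labels). The deposited values are raw counts of each distinct tag, not normalized. The study states that it counted some tags that fit several hairpins at each of them. Shared tags off the annotated start may thus be counted more than once. At -1, for example, the shared class had 20, 28, 50, 26, 24, 16 and 32 tags in the 7 libraries, all even. The same may hold for shared tags with a mismatch. The most frequent of these had 618, 650, 748, 600, 590, 782 and 1134 tags in the 7 libraries, again all even. Tags without a mismatch were 90.7% ± 2.76 (SD, n = 7) of the class shared by miR-103 and miR-107. The effect of such counting on shares and sums was not tested. A total of 293 tags on 101 lines carried no sequence and were dropped.

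Tags of at least 16 nt were placed on 1196 hairpins (1005 from RefSeq, GRCm38.p6, and 191 from GENCODE) at the best ungapped position with at most 2 mismatches and at most 4 bases past an end; 92.9% of tags had no mismatch and 0.339% were not placed. The authors' own mapping was to miRBase, so counts can differ. A tag was given to a mature strand where it began within 3 nt of its start, and copies were merged. Tags that fit several miRNAs equally formed their own class (1.06%). Strands whose hairpin has no annotated strand on it in the table were counted by arm.

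Counts were tested with edgeR 4.0.16 (quasi-likelihood, TMM, filterByExpr, day as a factor; coefficient of biological variation 0.403 on 3 residual degrees of freedom), and shares with limma 3.58.1 on log2 odds (0.5 added) where each library held 50 tags or more of a miRNA. The lone day 2 library adds nothing to the spread. Adjusted p values are Benjamini-Hochberg values over all features. The replicate number in the labels was taken to name the time course, since the study describes a repeat without day 2 and only replicate 1 lacks day 2. Libraries sharing a number deviated together over 943 features (r = 0.418 between days 1 and 3, 0.379 between days 1 and 4, 0.328 between days 3 and 4), and a second fit blocked on it. DESeq2 1.42.0, R 4.3.3 and Python 3.11.15 were used. Scripts were tested on simulated data. Only counting error enters the intervals and the limits given for a 0.

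Named were all classes of the 3 hairpins, 7 further miRNAs that open with the same bases, and the 5 features most like the 3′ arm sum. Members and lists were chosen with earlier results of these data known. Alternatives were DESeq2, library totals, no filter, the block, other divisions of shared tags, no mismatches, other minima and leaving out each library.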

Additional observations from a re-analysis of the deposited data

Results flagged for a closer look

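A library stood apart from the other 6 in 4 of 42 quantities checked, by a gap to its nearest neighbour above 0.57 of the whole range. Chance alone marks about 1 group in 20. The day 2 library of time course 2 had 29.1% shared tags, the nearest other library 22.3%. The day 3 library of time course 2 had 42.1 CPM of miR-103-1-5p, the nearest 33.0 CPM. The day 4 library of time course 1 had 14.2% of miR-107 tags ending at 24 nt, the nearest 17.5%. The day 3 library of time course 1 had 2772 CPM of miR-195a-5p, the nearest 3698 CPM.

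In 24 of 42 quantities day 4 and day 1 differed in opposite directions in the time courses. Opposite and like directions are equally likely where the differences are unrelated, and several of the quantities are shares of the same tags. Each time course has 1 library a day, and the difference between the time courses was not tested. All values that follow are day 4 minus day 1, with time course 2 before time course 1.

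The log2 ratio of miR-107 to miR-103 differed by 0.0723 against -0.15, that of 23-nt tags by 0.26 against -0.14, and that of 25-nt tags by -0.10 against 0.00901. Shared tags differed by 309 CPM against -518 CPM, and miR-107-5p by 24 CPM against -10.9 CPM. Of the other miRNAs of the group, miR-15b-5p differed by 2483 CPM against -180.0 CPM, miR-16-5p by 233 CPM against -626 CPM, miR-497a-5p by -978 CPM against 78.7 CPM, and miR-503-5p by 445 CPM against -123 CPM.

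The remaining differences are in percentage points. Among miR-107 tags the 22-nt end differed by -4.32 against 1.47, the 24-nt end by 1.6 against -4.75 and the 25-nt end by 0.0139 against -0.322. Among miR-103 tags the 23-nt end differed by -5.16 against 4.63, the 24-nt end by 4.27 against -3.46 and the 25-nt end by 0.32 against -0.538. Starts at +2 differed by 0.0705 against -0.0644 for miR-107 and by 0.477 against -0.155 for miR-103. In the 3′ arm sum, starts at -1 differed by 0.0175 against -0.00562, all starts off the annotated base by 0.244 against -0.0981, and ends off it by 0.571 against -5.61. The 5′ arm share differed by 0.0645 against -0.107 at mir-107 and by 0.119 against -0.0199 at mir-103. The share of mir-103-1 among 5′ tags of the mir-103 hairpins differed by -5.08 against 4.78, and starts at -1 of miR-103-1-5p, which rest on 0 to 2 tags a library, by -0.684 against 0.613.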

How the results depend on the processing

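At day 4 against day 1, edgeR's count of 0 called features became 9 with DESeq2, 10 with no filter on low counts and 11 with the replicate block, and stayed 0 without any single library. No class of the 3 hairpins was called under any of these, and the block changed no call of theirs. The log2 fold change of the 3′ arm sum was 0.0563 to 0.44 with 1 library left out. The count of 50 features between time courses became 94 with no filter, and 0 to 82 with 1 library left out. With a minimum of 200 tags, 2 miRNAs passed for 5′ starts in place of 0.

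The log2 ratio of miR-107 to miR-103 fell short of the test, at 0.17 without tags that end on base 22 and 0.19 among tags of 23 nt or longer (exact sign-flip p = 0.0781 for both). Both settings leave out the 22-nt tags. Over all tags that fit 1 miRNA the ratio was 0.34 to 0.41 with 1 library left out. Alternatives for the arm test, and those for the end, start and hairpin-share tests, which were chosen after seeing the data, kept direction and call.

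Changes of sign occurred in 11 cases, each of a value that was not called. At day 4 against day 1 the shared class was -0.0289 with library totals. With 1 library left out the log2 fold change at day 4 was -0.0313 (without the day 4 library of time course 1) to 0.61 for miR-103-3p, -0.0341 (without the day 1 library of time course 2) to 0.33 for the shared class, and -0.0557 (without the same day 1 library) to 0.55 for miR-107-5p. The difference in log2 odds of ends off the annotated base was -0.0857 (without the day 4 library of time course 2) to 0.22 for miR-107-5p and -0.34 to 0.0518 (without the day 4 library of time course 1) for the 3′ arm sum, and that of starts was -0.12 (without the day 1 library of time course 2) to 0.38 for the sum. Between time courses miR-103-2-5p was -0.37 to 0.13, positive without either day 1 library (0.12 and 0.13), and tags that fit miR-103-2-5p and miR-107-5p were -0.75 to 0.16, positive without either day 3 library. The causes were not tested. The 5′ strands' low tag counts and 2 libraries a day limit what could be seen.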
